A study of Mus musculus with 26 samples.

Results

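Antigen presentation by MHC class I was followed through 10 genes in lacrimal glands: the heavy chains H2-K1 and H2-D1, their partner B2m, the peptide transporter Tap1 and Tap2, the loading factor Tapbp, the immunoproteasome subunits Psmb8, Psmb9 and Psmb10, and the proteasome activator Psme1. They were taken as every probe set annotated to 1 of these genes and to no other, which gave 27 of the 45101 probe sets on the array and 10 of its 18194 genes. A further 3 probe sets carrying the symbol of 1 of these genes beside another gene's were left out. Of the 27, 22 passed the filter on low values, which asks for a value above the array's median on at least 4 arrays, and 9 of the 10 genes passed it through the probe set that stood for them. Tap2 was the gene that did not pass.

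The 26 arrays came from male C57BL/6.NOD-Aec1Aec2 mice, which carry the NOD-derived Idd3 and Idd5 regions on a C57BL/6 background and develop a Sjögren's syndrome-like disease of tear and salivary glands. All 5 groups were of this strain and differed in age. Arrays numbered 4 at 4 weeks (before disease), 6 at 8 weeks (early pre-clinical), 6 at 12 weeks (first entry of leukocytes), 5 at 16 weeks (early clinical autoimmunity) and 5 at 20 weeks (onset of secretory loss). No array of a control strain was analysed here, so disease stage and age cannot be told apart. Each array is named a biological replicate, but no label says if its RNA came from 1 mouse or several. The p-values therefore cover only how these samples differ among themselves.

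Class I molecules display peptides from a cell's own proteins to CD8 T cells. Proteasomes cut the proteins, the Tap1 and Tap2 transporter carries the peptides into the endoplasmic reticulum, and Tapbp (tapasin) holds the empty heavy chain and B2m (beta-2 microglobulin) beside it for loading. In most tissues interferon raises this set of genes together, and the inducible catalytic subunits Psmb8, Psmb9 and Psmb10 then take the places of Psmb5, Psmb6 and Psmb7.

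Values are log2 array values. A value under 4.04, within 1 log2 unit of the median of the array medians (range 2.94 to 3.22), is called near background. A pair of arrays stood apart from the rest: 16 weeks replicate 4, with an SD over its log2 values of 1.68, and 20 weeks replicate 1, with 1.36, where the other arrays had 1.78 to 2.27. Their median correlations with arrays of their own age were 0.921 and 0.869. Results are therefore given with all 26 arrays and without both. The gland was present by its markers, with all 5 epithelial genes and 5 of 6 acinar genes above the background limit at every age, the muscarinic receptor Chrm3 being the exception. Salivary gland products were also present at a mean log2 level of 7.78 to 9.93 by age and 4.36 to 12.20 by array, and their part in the results was not tested. In whole glands, fewer cells of a type and less RNA per cell cannot be told apart.

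H2-K1 and H2-D1, the heavy chains that hold the peptide, were well above background on all 26 arrays. Their promoters are shown because both moved nearly in step and hold the same 3 short motifs in the same order, given in capitals: GGGNNTTCC (an NF-kB-type site), GAANNGAAA (an interferon-response type element, read here on the other strand) and TGACG (a cyclic AMP-response type core). Windows run from 250 bases before to 50 bases after the start in RefSeq on GRCm38.p6, at chr17:34000298-34000597 on the minus strand for H2-K1 (the first of its 2 entries) and chr17:35262844-35263143 on the plus strand for H2-D1. The B2m window, at chr2:122147437-122147736 on the plus strand, holds GAAANNGAA, a like element that can overlap GAANNGAAA, and TGACG on both strands.

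H2-K1: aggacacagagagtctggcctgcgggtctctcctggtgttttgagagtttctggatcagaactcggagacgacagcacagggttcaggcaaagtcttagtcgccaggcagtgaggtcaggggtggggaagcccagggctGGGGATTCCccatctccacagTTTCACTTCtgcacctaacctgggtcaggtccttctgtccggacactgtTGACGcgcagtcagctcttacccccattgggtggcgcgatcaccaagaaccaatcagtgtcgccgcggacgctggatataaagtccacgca

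H2-D1: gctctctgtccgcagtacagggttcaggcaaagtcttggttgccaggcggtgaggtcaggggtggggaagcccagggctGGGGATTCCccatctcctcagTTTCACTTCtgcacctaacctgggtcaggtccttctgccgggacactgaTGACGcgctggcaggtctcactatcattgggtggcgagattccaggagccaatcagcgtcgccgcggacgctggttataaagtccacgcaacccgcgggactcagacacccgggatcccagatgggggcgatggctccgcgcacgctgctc

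B2m: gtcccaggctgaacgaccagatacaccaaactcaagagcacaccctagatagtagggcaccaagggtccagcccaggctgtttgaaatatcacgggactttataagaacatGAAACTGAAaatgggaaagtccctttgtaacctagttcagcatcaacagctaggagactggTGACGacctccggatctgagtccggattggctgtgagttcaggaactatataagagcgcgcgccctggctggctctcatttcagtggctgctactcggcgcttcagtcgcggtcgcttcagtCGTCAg

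Across all 32851 promoter windows of that table, searched on both strands, GGGNNTTCC was found in 5.82%, GAANNGAAA in 7.52%, GAAANNGAA in 8.56% and TGACG in 20.8%. The motifs were chosen with these promoters in view, and a match describes letters only.

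H2-K1 read 8.87, 9.20, 8.59 and 9.83 on the 4 arrays at 4 weeks. At 8 weeks its lowest, median and highest values were 9.91, 10.59 and 11.14, and at 12 weeks 10.07, 10.50 and 10.97. It read 9.87, 10.93, 9.11, 9.81 and 9.68 at 16 weeks and 7.01, 9.57, 9.91, 10.09 and 10.84 at 20 weeks. The 4-week arrays lay below every 8-week array, and the lowest value of all was that of 20 weeks replicate 1.

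H2-D1 read 9.55, 10.12, 9.76 and 10.94 at 4 weeks, with a lowest, median and highest of 10.97, 11.78 and 12.39 at 8 weeks and 11.11, 11.64 and 12.31 at 12 weeks. It read 11.22, 12.01, 10.16, 10.87 and 10.65 at 16 weeks and 8.00, 10.59, 10.83, 11.05 and 12.19 at 20 weeks. Both heavy chains thus had their lowest mean at 4 weeks, and their values ran together with r = 0.988 over the 26 arrays (0.982 within ages). The probe sets standing for both end in _x_at, a mark for probes that can bind related transcripts, so signal from each other or from further class I genes cannot be told apart.

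B2m, the light chain shared by all class I molecules, read 10.47, 8.69, 11.24 and 9.53 at 4 weeks. At 8 weeks it ran from 11.22 through a median of 11.78 to 12.50, and at 12 weeks from 11.20 through 11.50 to 12.02. It read 12.30, 13.34, 11.53, 6.18 and 11.91 at 16 weeks and 9.43, 12.17, 12.39, 12.25 and 12.42 at 20 weeks. The 4-week arrays overlapped the 8-week arrays by 4 weeks replicate 3 alone, and the deep values at 16 and 20 weeks were those of the arrays that stood apart.

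**Figure D1:**
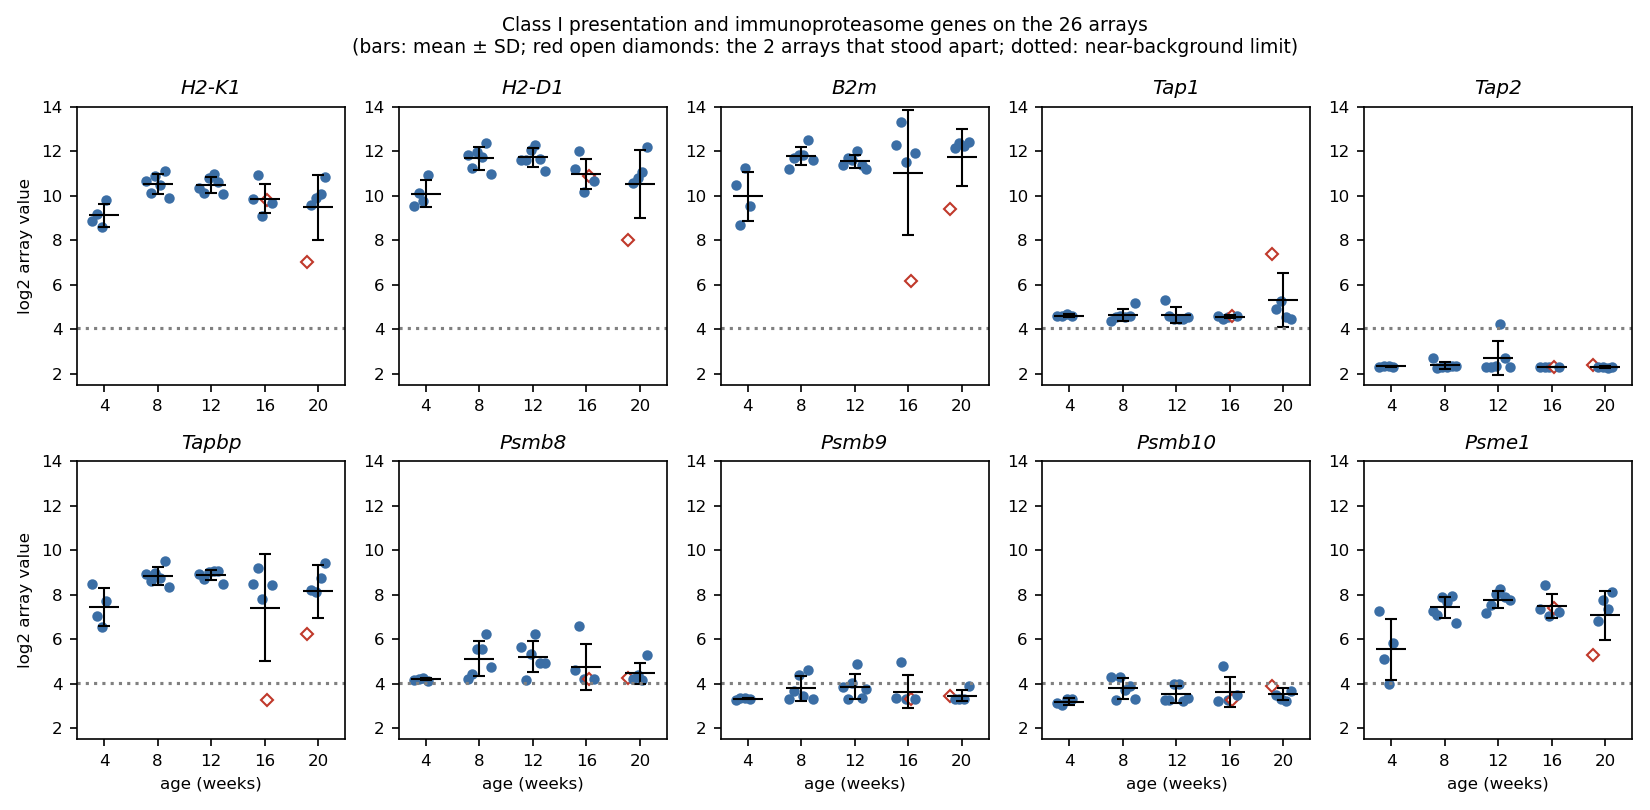
Log2 array value (y axis) of each of the 10 genes against age in weeks (x axis). Points are arrays, bars the mean and SD, red open diamonds the arrays that stood apart, and the dotted line the near-background limit of 4.04. H2-K1, H2-D1, B2m, Tapbp and Psme1 have their 4-week points low, while Tap2, Psmb9 and Psmb10 lie mostly under the line.

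Tap1, a subunit of the peptide transporter, lay close to the background limit at most ages. Its representing probe set read 4.57, 4.62, 4.68 and 4.57 at 4 weeks, with medians of 4.56 at 8 weeks and 4.51 at 12 weeks. It read 4.61, 4.44, 4.56, 4.61 and 4.58 at 16 weeks and 7.40, 4.89, 5.29, 4.53 and 4.46 at 20 weeks. The value of 7.40 came from 20 weeks replicate 1, an array that stood apart. On that same array H2-K1, H2-D1, B2m, Tapbp and Psme1 had their lowest values of the age.

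The probe sets of Tap1 disagreed. Probe set 1416016_at lay at 2.75 to 2.86 on all 4-week arrays and reached 4.94 on 12 weeks replicate 4, 3.94 on 20 weeks replicate 5 and 3.88 on 20 weeks replicate 4. Its r with the mean of the other 8 kept genes was 0.48 over the 26 arrays, against -0.45 for the representing probe set 1449803_x_at and -0.50 for 1420274_at. Tap2, the partner subunit, was near background on 25 of 26 arrays and reached 4.21 on 12 weeks replicate 4, the array on which 1416016_at was also highest.

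Tapbp, the bridge between transporter and heavy chain, read 8.49, 7.02, 6.56 and 7.70 at 4 weeks. At 8 weeks it ran from 8.33 through a median of 8.85 to 9.51, and at 12 weeks from 8.48 through 8.97 to 9.09. It read 8.47, 9.18, 7.79, 3.24 and 8.43 at 16 weeks and 6.24, 8.22, 8.11, 8.74 and 9.44 at 20 weeks. Of the 4-week arrays, only replicate 1 reached the 8-week range, and the value of 3.24 was again that of 16 weeks replicate 4.

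Psmb8, the inducible chymotrypsin-like subunit, was even at 4 weeks and uneven later. It read 4.18, 4.22, 4.24 and 4.13 at 4 weeks, just over the background limit. At 8 weeks it ran from 4.19 through a median of 5.15 to 6.23, and at 12 weeks from 4.17 through 5.14 to 6.21. It read 4.59, 6.58, 4.20, 4.18 and 4.18 at 16 weeks and 4.25, 4.20, 4.38, 4.14 and 5.29 at 20 weeks. Some arrays of every later age lay within the 4-week range, and the highest lay more than 1 log2 unit above it at each age.

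Psmb9 and Psmb10, the other inducible subunits, were near background on 22 and 23 of the 26 arrays. Psmb9 lay between 3.28 and 3.37 on the 4-week arrays and passed the limit on 8 weeks replicates 3 (4.38) and 5 (4.61), 12 weeks replicate 4 (4.86) and 16 weeks replicate 2 (4.96). Psmb10 lay between 3.01 and 3.32 at 4 weeks and passed it on 8 weeks replicates 1 (4.28) and 3 (4.29) and 16 weeks replicate 2 (4.80). Psmb8 and Psmb9 followed each other with r = 0.905 over the 26 arrays and 0.894 within ages. Since Psmb9 and Psmb10 were near background at 4 weeks, the sizes of their changes are poorly determined.

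Psmb9 and Tap1 are read in opposite directions from starts 226 bases apart, and 275 of the 300 bases of their promoter windows are the same. The Tap1 window, at chr17:34187306-34187605 on the plus strand, is shown because it serves both genes. TGACG, in capitals, was the only motif searched that it held.

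Tap1: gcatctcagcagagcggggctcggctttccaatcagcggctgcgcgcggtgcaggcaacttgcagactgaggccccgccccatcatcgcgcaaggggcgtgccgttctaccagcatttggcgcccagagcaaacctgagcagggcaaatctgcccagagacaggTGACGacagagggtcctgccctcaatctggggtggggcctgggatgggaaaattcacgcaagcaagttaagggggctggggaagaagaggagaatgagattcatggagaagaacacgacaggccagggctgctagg

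The Psmb8 window held TTCNNNGAA (8.3% of all windows) and that of Psme1 held GAAANNGAA and GAANNGAAA. None of the 5 motifs was found in the windows of Tapbp and Psmb10.

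Psme1, the alpha subunit of the PA28 activator that opens the proteasome, was uneven at 4 weeks. It read 7.25, 5.12, 3.98 and 5.83 at 4 weeks. At 8 weeks it ran from 6.74 through a median of 7.46 to 7.94, and at 12 weeks from 7.16 through 7.84 to 8.26. It read 7.36, 8.43, 7.04, 7.40 and 7.23 at 16 weeks and 5.27, 6.80, 7.75, 7.36 and 8.13 at 20 weeks. Replicate 1 was the only 4-week array within the range of the 8-week and 12-week arrays.

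Over the 5 ages, Psme1 was the only one of the 9 genes tested that changed. Its age means ran from 5.54 ± 1.37 (SD, n = 4) at 4 weeks to 7.78 ± 0.39 (SD, n = 6) at 12 weeks, a range of 2.23 (limma F test, adjusted p = 0.0267). Among all genes tested, 14.9% were called, so 1 of 9 lies near the background. The call of Psme1 was lost without 4 weeks replicate 2, 3 or 4. Without 16 weeks replicate 4, 2 of the 9 genes were called (15.2% of all genes), and 3 without 20 weeks replicate 1 (18.1%) or 20 weeks replicate 5 (23.9%).

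Without both arrays that stood apart, 5 of the 9 genes changed over the 5 ages, against 20.8% of all genes. These were B2m (adjusted p = 0.00185), Psme1 (0.00809), H2-D1 (0.0152), H2-K1 (0.0186) and Tapbp (0.0188). The immunoproteasome subunits were not among them, with adjusted p-values of 0.286 for Psmb8, 0.562 for Psmb9 and 0.36 for Psmb10.

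The comparison of 8 with 4 weeks asks what differs between the pre-disease and the early pre-clinical gland. With all 26 arrays in the fit, none of the 9 genes passed the limma test, where 1.36% of all genes did. The unadjusted p was under 0.05 in 4 of the 9 genes, against 14.1% of all genes. All 9 changes were positive, with a median of 1.40 against 0.032 over all genes tested. The 8-week and 4-week arrays did not overlap for H2-K1 and H2-D1, with the older arrays higher, as in 3.34% of all genes.

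Psme1 was 1.89 ± 0.50 (SE) higher on the log2 scale at 8 weeks, a fold of 3.69 (adjusted p = 0.0633). B2m was 1.81 ± 0.89 higher (0.361), H2-D1 1.60 ± 0.52 (0.151), H2-K1 1.41 ± 0.49 (0.18) and Tapbp 1.40 ± 0.77 (0.398). The changes of the immunoproteasome subunits were smaller, at 0.93 ± 0.45 for Psmb8 (0.354), 0.60 ± 0.27 for Psmb10 (0.327) and 0.46 ± 0.33 for Psmb9 (0.468). Tap1 differed by 0.015 ± 0.36 (0.984), and the sign of its difference turned under quantile normalization and with other probe sets.

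Without both arrays that stood apart, which are of 16 and 20 weeks and enter this contrast through the shared spread alone, 5 of the 9 genes rose, each with a smaller SE than before. They were B2m (SE 0.37, adjusted p = 0.00656), H2-D1 (SE 0.37, 0.0143), H2-K1 (SE 0.33, 0.0145), Tapbp (SE 0.33, 0.0159) and Psme1 (SE 0.44, 0.0162). In that fit 4.23% of all genes rose. Leaving out 20 weeks replicate 1 alone called 3 of the 9 (3.37% of all genes), and leaving out 4 weeks replicate 1 (1.53%) or 8 weeks replicate 6 (3.09%) called Psme1 alone.

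**Figure D2:**
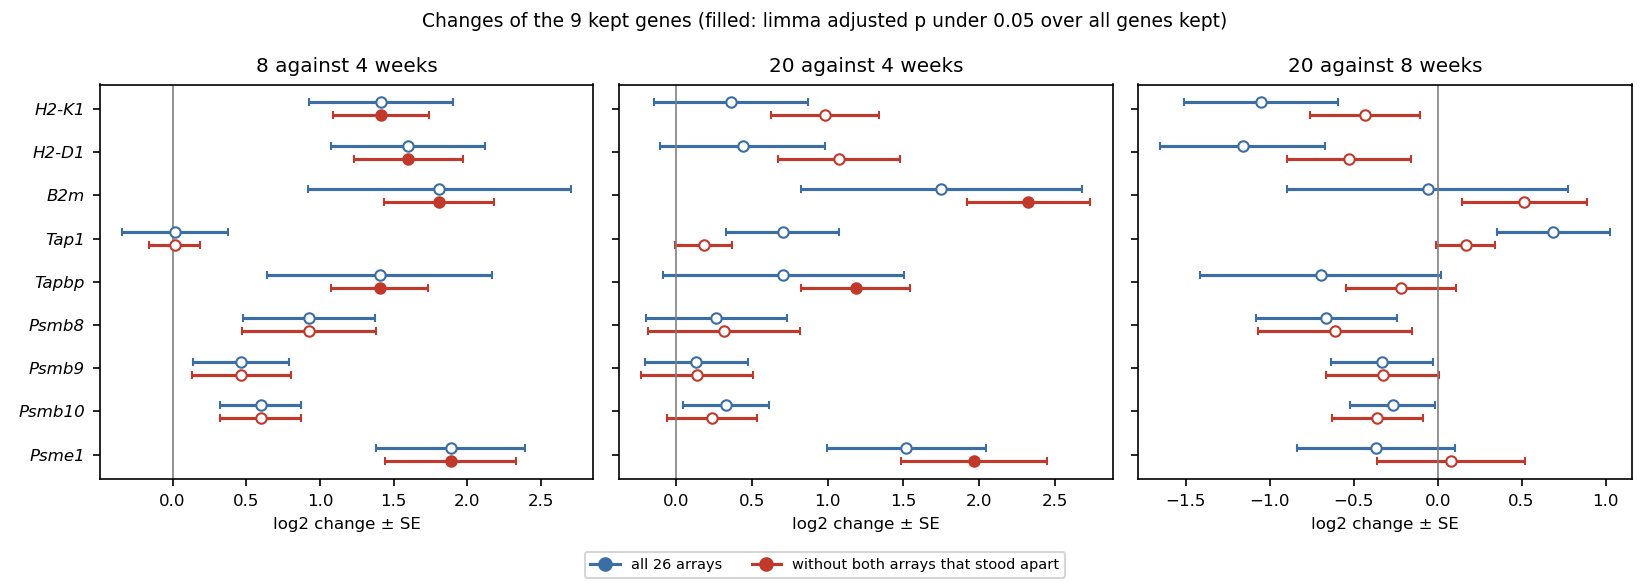
Log2 change, later minus earlier age, with its SE (x axis) for the 9 genes tested (y axis), in 3 comparisons. Blue points come from all 26 arrays and red points from the fit without the arrays that stood apart, and filled points have an adjusted p under 0.05. The 8 against 4 weeks changes are the same in both fits, with 5 filled points in red and none in blue.

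At 20 against 4 weeks, over the whole disease course, none of the 9 genes passed the limma test with all arrays, against 2.21% of all genes, and 1 had an unadjusted p under 0.05, against 14.6%. Psme1 was 1.52 ± 0.52 (SE) higher (adjusted p = 0.145) and B2m 1.75 ± 0.93 higher (0.389), while H2-K1 and H2-D1 differed by 0.36 ± 0.51 (0.794) and 0.44 ± 0.54 (0.766). Without both arrays that stood apart, B2m rose by 2.32 ± 0.41 (adjusted p = 0.000916), with all 4 remaining 20-week arrays above the 4-week arrays. Psme1 rose by 1.97 ± 0.48 (0.0132) and Tapbp by 1.19 ± 0.36 (0.0442) in that fit, where 5.82% of all genes rose. The heavy chains did not pass there, at 0.98 ± 0.36 for H2-K1 (0.103) and 1.07 ± 0.40 for H2-D1 (0.117). Psmb8, Psmb9 and Psmb10 differed by 0.31 ± 0.50, 0.14 ± 0.37 and 0.24 ± 0.30.

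Between neighbouring ages after 8 weeks, none of the 9 genes passed the limma test, with backgrounds of 0.0162% for 12 against 8, 2.98% for 16 against 12 and 0.0162% for 20 against 16 weeks. The unadjusted p was under 0.05 in 0, 0 and 1 of the 9 in these comparisons, against 4.96%, 20.9% and 8.14% of all genes. At 20 against 8 weeks, where 25.2% of all genes were called, again none of the 9 passed, and 2 had an unadjusted p under 0.05, against 41.1% of all genes. The log2 change was -1.16 ± 0.49 (SE) for H2-D1 (adjusted p = 0.0801) and -1.05 ± 0.46 for H2-K1 (0.0892), and without both arrays that stood apart -0.53 and -0.43. Without 20 weeks replicate 5, which carried the highest heavy chain values of its age, H2-K1, H2-D1 and Tap1 were called, in a fit that called 35.1% of all genes.

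The probe sets of a gene did not all tell the same story. With every probe set tested on its own, 5 of the 22 changed over the 5 ages, against 14.9% of all probe sets. They were 1427746_x_at and 1425336_x_at of H2-K1 (limma adjusted p = 0.00377 and 0.0142), 1451784_x_at of H2-D1 (0.0252), 1417056_at of Psme1 (0.0267) and 1452428_a_at of B2m (0.0457). Without both arrays that stood apart the count was 10, against 18.7%. It was 3 without 4 weeks replicate 2 (11.3% of all) or 3 (14%), 8 without 20 weeks replicate 1 (17.2%) and 11 without 20 weeks replicate 5 (24.1%).

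At 8 against 4 weeks, 0 of the 22 probe sets passed, where 1.04% of all probe sets did, and 11 of the 22 had an unadjusted p under 0.05 (13.6% of all). Changes were positive in 14 of the 15 whose mean over all arrays was above the background limit, with a median of 1.60, and in 4 of the 7 below it, with a median of 0.082. In 8 of the 22, all 8-week arrays lay above all 4-week arrays, against 2.81% of all probe sets. These 8 were all of H2-K1, H2-D1 or B2m. Probe sets of the same gene, and those of both heavy chains, can read the same transcripts. The probe set counts are therefore not counts of independent members. The B2m probe set 1452428_a_at differed most, with 8.85, 7.06, 9.73 and 8.70 at 4 weeks and 10.15 to 12.18 at 8 weeks (2.58 ± 0.64 SE, adjusted p = 0.0507). H2-D1's probe set 1426324_at, whose name carries no mark for related transcripts, differed by 1.24 ± 0.45 (0.214). Its 4-week mean of 3.80 (range 3.51 to 4.12) was near background, so the size of this change is poorly determined. Without both arrays that stood apart 10 of the 22 probe sets rose, against 3.03% of all. They were of H2-K1, H2-D1, B2m, Tapbp and Psme1. Without 20 weeks replicate 1 alone 8 were called (2.63% of all). The count was 4 without 8 weeks replicate 6 (2.74% of all) and 2 without 16 weeks replicate 2 (1.06%). It was 1 without 4 weeks replicate 1 (1.3%), 16 weeks replicate 4 (1.17%) or 20 weeks replicate 5 (1.14%).

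At 20 against 8 weeks, 6 of the 22 probe sets changed, against 26.7% of all. H2-K1's 1427746_x_at fell by 2.06 ± 0.44 (SE, adjusted p = 0.00401) and its 1425336_x_at fell by 2.15 ± 0.64 (0.0228), while 1451784_x_at of H2-D1 fell by 1.48 ± 0.47 (0.0303). The first of these read 8.18 to 9.57 on 20 weeks replicates 2 to 5 and 6.59 on replicate 1, against 9.59 to 11.30 at 8 weeks. The probe sets 1420274_at of Tap1, 1444619_x_at of Psmb8 and 1427651_x_at of H2-D1 rose by 0.71, 0.46 and 0.19, from 8-week means near background of 3.86, 3.68 and 3.32.

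Of those 6, only 1427746_x_at (log2 change -1.64, adjusted p = 0.0109) and 1444619_x_at (0.39, adjusted p = 0.0374) kept the call without both arrays that stood apart, a fit that called 15.3% of all probe sets. The count was 3 without 8 weeks replicate 1 (11.9% of all) or 4 (14.9%), 2 without 20 weeks replicate 1 (13%) and 11 without 20 weeks replicate 5 (36.3%). None of the 22 passed with the difference of 3 prime and 5 prime actin probe sets as a covariate, a fit that called 6.03% of all probe sets. That difference, a measure of RNA quality, was 2.63 ± 0.50 (SD, n = 6) at 8 weeks and 3.89 ± 0.89 (SD, n = 5) at 20 weeks.

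**Figure D3:**
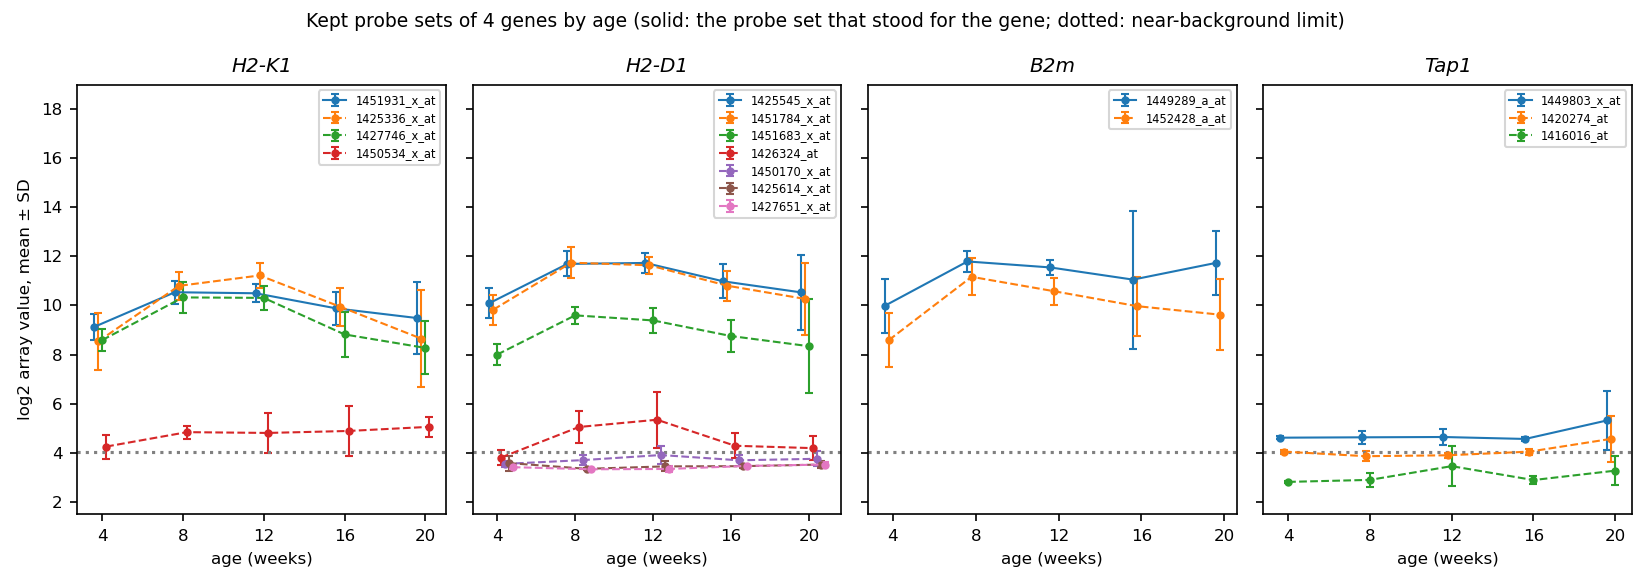
Mean log2 array value and SD (y axis) by age in weeks (x axis) of the kept probe sets of H2-K1, H2-D1, B2m and Tap1. Solid lines mark the probe set that stood for the gene, and the dotted line is the near-background limit of 4.04. The bright probe sets of H2-K1, H2-D1 and B2m are lowest at 4 weeks, except 1427746_x_at, which is lowest at 20 weeks.

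Within an age, the genes were high on the same few arrays. Of the 9 kept genes, 7 had their highest value of the age on 8 weeks replicate 5, 7 on 12 weeks replicate 4, 8 on 16 weeks replicate 2 and 7 on 20 weeks replicate 5. The arrays differed in what else was high on them. On 16 weeks replicate 2 the mean of the interferon gamma response list lay 1.24 above that of its age, the MHC class II list 1.28 above and the adipose tissue list 2.01 above. On 8 weeks replicate 5 the type I interferon list lay 1.05 and the interferon gamma list 0.98 above.

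On 12 weeks replicate 4 the B cell list lay 1.60 above the mean of its age, and on 20 weeks replicate 5 the epithelium list lay 1.19 and the MHC class II list 1.16 above. The salivary gland list lay 1.37, 2.05 and 1.61 above on 12 weeks replicate 4, 16 weeks replicate 2 and 20 weeks replicate 5, and deviated by -3.97 on 8 weeks replicate 5. The part of these in the values of the class I genes was not tested.

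**Figure D4:**
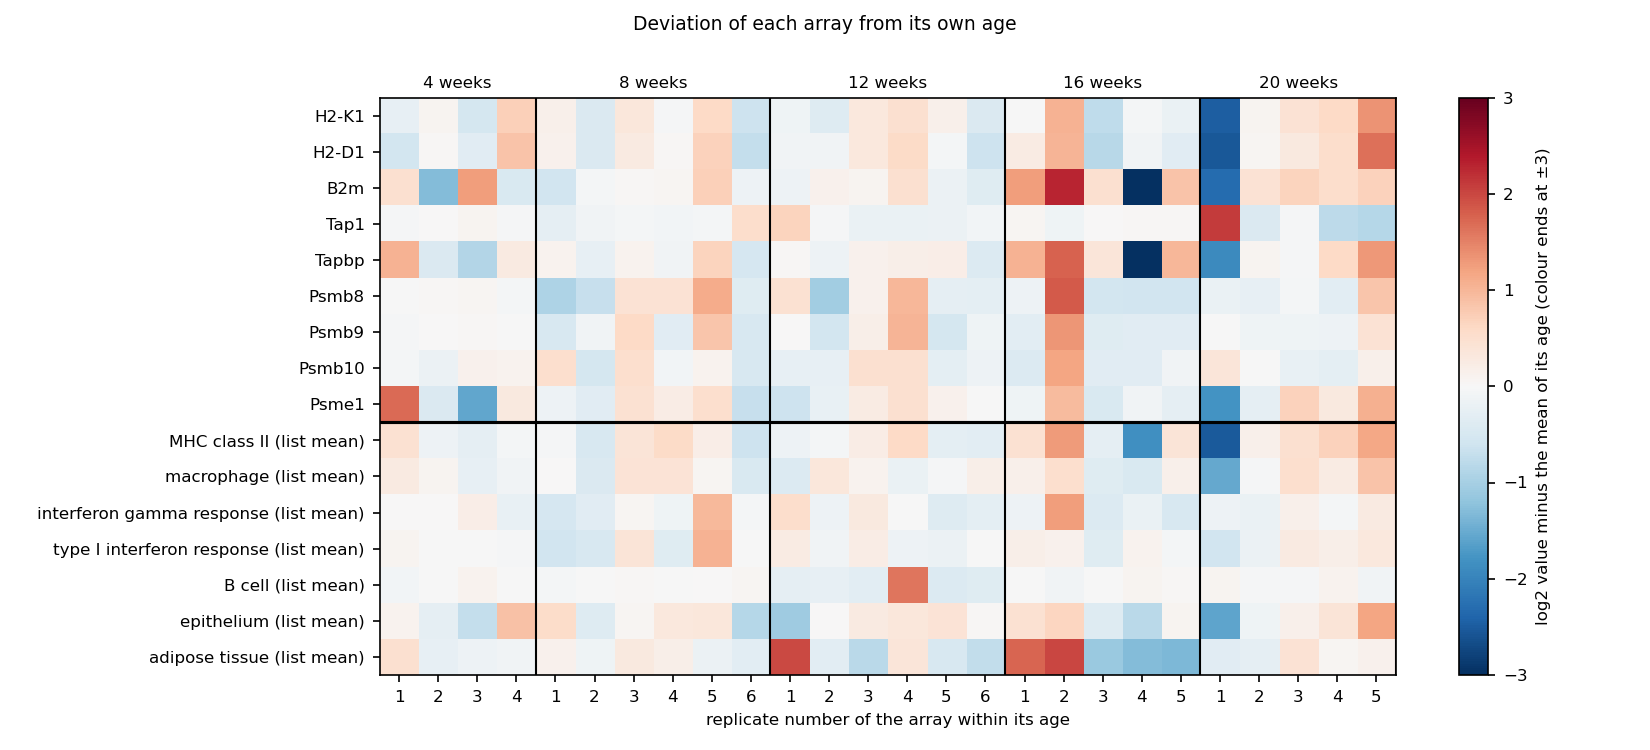
Log2 value of each array minus the mean of its age, in colour from blue (lower) to red (higher) with the scale ending at 3 on both sides, for the 9 genes (upper rows) and the means of 7 gene lists (lower rows). Columns are the 26 arrays by age and replicate number. 16 weeks replicate 2 is red across all genes but Tap1, and 20 weeks replicate 1 is blue for H2-K1, H2-D1, B2m, Tapbp and Psme1 and red for Tap1.

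The inducible subunits were set against the standard subunits they replace as a difference of log2 values on each array, which shows unequal change and no order of levels. At 8 against 4 weeks the difference moved by -0.24 for Psmb8 minus Psmb5, -0.15 for Psmb9 minus Psmb6 and -0.21 for Psmb10 minus Psmb7 (two-sided exact permutation tests, adjusted p = 0.714 in each, 6 tests in all). The direction of all 3 turned under quantile normalization.

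At 20 against 4 weeks, Psmb10 minus Psmb7 was -6.31, -6.79, -5.95 and -7.59 on the 4-week arrays and -2.04, -5.15, -5.44, -5.29 and -5.57 on the 20-week arrays. It rose by 1.96, with no overlap between the ages (exact permutation p = 0.00794, the smallest these sizes can give, adjusted p = 0.0476). Psmb10 was near background at both ages, and Psmb7 had a log2 change of -1.64 ± 0.62 (SE) that did not pass (adjusted p = 0.194). Leaving out any 1 array gave a rise of 1.30 (without 20 weeks replicate 1) to 2.20. With an array fewer the smallest p is 0.0286 for 4 against 4 arrays and 0.0179 for 3 against 5. Both are too large for a lone test of the 6 to pass, so the lost call alone does not decide stability. Without 4 weeks replicate 1, 2 or 4 the adjusted p of the exact permutation test was 0.214, 0.321 and 0.405. These are larger than the smallest p would give. The rises there were 2.08, 1.92 and 1.66, and the ages still did not overlap, so the larger p-values do not show a loss of separation. With unequal sizes the two-sided test can also count splits that place 20 weeks replicate 1 (-2.04) in the smaller group. Psmb8 minus Psmb5 differed by 1.37 (exact permutation p = 0.0714, adjusted p = 0.214) and Psmb9 minus Psmb6 by 0.77 (adjusted p = 0.714).

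**Figure D5:**
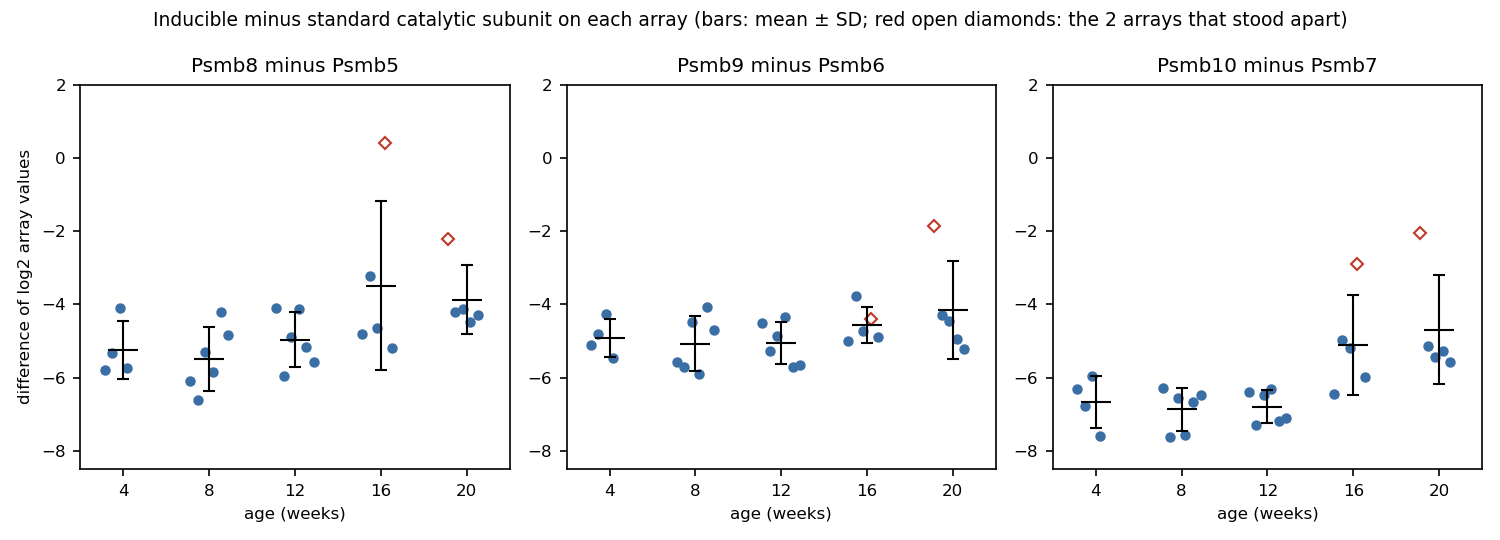
Difference of log2 array values, inducible minus standard catalytic subunit (y axis), by age in weeks (x axis) for 3 subunit pairs. Points are arrays, bars the mean and SD, and red open diamonds the arrays that stood apart. In Psmb10 minus Psmb7 all 20-week points lie above all 4-week points.

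Of the other genes of the pathway, 66 of 78 listed were on the array and 59 passed the filter. Over the 5 ages 15 of the 59 changed (25.4%, against 14.9% of all genes), 0 at 8 against 4 weeks and 1 at 20 against 4 weeks, the loading partner Pdia3, which fell by 2.87 ± 0.63 (SE, adjusted p = 0.0196). At 20 against 8 weeks 18 changed, 16 lower and 2 higher, which is 30.5% against 25.2% of all genes. The standard subunits Psmb7, Psmb5 and Psmb6 fell by 2.44, 2.28 and 1.25 (adjusted p = 0.00659, 0.0337 and 0.0386), and without both arrays that stood apart 2 of the 3 fell, in a fit that called 15.4% of all genes. The actin difference of 3 prime and 5 prime probe sets went from 2.63 to 3.89 between these ages and that of Gapdh from 1.15 ± 0.23 (SD, n = 6) to 2.54 ± 0.40 (SD, n = 5), and their part in the falls was not tested. Without both arrays, 21 of the 59 changed over the 5 ages (35.6%, against 20.8% of all genes). At 8 against 4 weeks 2 rose, the chaperone Calr and Psmb5, against 4.88% of all genes called, and at 20 against 4 weeks 5 changed, H2-Q2, Pdia3, Hspa5, Psma4 and Psma6, against 8.25%.

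Over all genes, 14.7% were called lower and 10.6% higher at 20 against 8 weeks, and 10.1% lower without both arrays that stood apart. Assembly and activator genes had 4 of 8 members lower in that comparison, and 3 of 8 without both arrays. Among the 4 were the chaperones Psmg2 (-2.54) and Pomp (-1.59) and the activator Psme3 (-2.20). Among loading factors, 2 of 8 fell, Pdia3 (-2.89) and the chaperone Hsp90b1 (-1.74), and 4 of 8 without both arrays. Of other 20S core subunits, 2 of 11 fell (Psma4 by 3.15 and Psma7 by 1.65), and 3 of 11 without both arrays. Of the cytosolic peptidases 4 of 7 fell, such as Thop1 (-2.36) and Ide (-1.69), and 2 of 7 without both arrays. The 2 genes that rose were the class I heavy chain H2-Q2 (1.70 ± 0.45) and the class I-like Mr1 (0.36 ± 0.099). Mr1 was near background at every age and H2-Q2 at 8 weeks (mean 3.68), so the sizes of both changes are poorly determined.

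With all arrays, H2-Q2 was the only one of 5 other class I heavy chains tested that changed over the ages, against 14.9% of all genes. Without both arrays that stood apart H2-Q10 also did, against 20.8% of all genes. H2-Q2 had means of 3.61, 3.68, 4.64, 4.56 and 5.37 from 4 to 20 weeks (limma F test, adjusted p = 0.041). Among regulators of class I genes, 2 of 8 changed over the ages (14.9% of all genes), and 3 without both arrays (20.8%), Irf1 being the addition. Irf8, an interferon regulatory factor, had means of 3.50, 4.50, 4.91, 3.56 and 3.18 (adjusted p = 0.0293), and the NF-kB subunit Rela means of 7.03, 7.76, 8.09, 7.42 and 7.27 (0.0242). The class I activator Nlrc5 was near background at every age, as were Ifng and all 6 receptors that read class I, Cd8a and Cd8b1 included.

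Markers of macrophages and MHC class II were higher at 8 than at 4 weeks, where none of the 9 class I genes passed with all arrays. Over all genes 1.14% rose, and 4.23% without both arrays that stood apart. Of the 13 macrophage markers tested, 7 rose, and 10 without both arrays. The mean of all 15 on the array went from 4.71 ± 0.23 (SD, n = 4, range 4.46 to 4.98) to 6.47 ± 0.38 (SD, n = 6, range 6.02 to 6.88). At 4 weeks 6 of those 15 were near background and at 8 weeks 3, which were Fcgr1, Cd14 and Itgam. Of 6 MHC class II genes, 5 rose with and without both arrays, and their mean went from 5.83 ± 0.32 to 8.70 ± 0.48. The ranges of the 4-week and 8-week arrays did not overlap in either list.

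The mean of the plasma cell list was also higher at 8 weeks. The mean of the 5 on the array went from 4.21 ± 0.26 (SD, n = 4, range 3.82 to 4.35) to 5.44 ± 0.33 (SD, n = 6, range 5.06 to 5.98), and was 6.44, 6.22 and 6.36 at 12, 16 and 20 weeks. Of the 3 tested, Igha, the heavy chain of IgA, rose by 3.18 ± 0.60 (SE, adjusted p = 0.00666), where 1.14% of all genes rose. Without both arrays Jchain and Sdc1 rose too, where 4.23% of all genes did. Mzb1 and the defining marker Tnfrsf17 were near background at every age, and Jchain was at 4 weeks, so the list mean rests on part of its genes.

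The T cell, B cell, dendritic and natural killer lists had low means at every age, though the B cell list reached 4.58 on 12 weeks replicate 4. At least 8 of 9 T cell markers, 5 of 6 B cell markers, 5 of 6 dendritic cell markers and all 6 natural killer and cytotoxic markers were near background at every age, with Cd3e, Cd79a and Ncr1 among them. The interferon gamma response list had none of 10 genes called at 8 against 4 weeks and the type I interferon list none of 15. Without both arrays it was 0 of 10 and 1 of 15 (Ifih1). The changes at 8 against 4 weeks were positive in 9 of the 10 and 14 of the 15, with medians of 0.34 and 0.73. Over all genes 1.36% were called in that comparison, and 4.88% without both arrays. The epithelium list differed by a median of 1.06 at 8 against 4 weeks, with none of 5 called, and 1 (Krt8) without both arrays. The part of these cell types in the class I values was not tested.

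The genes whose values over the 26 arrays were most like the mean of the 9 kept genes were Cd74 (r = 0.921), H2-Ab1 (0.884), Apoe (0.881), H2-Eb1 (0.859), Ctsh (0.850), Ifi35 (0.850), Laptm5 (0.838), St6galnac2 (0.835), H2-Aa (0.833) and Sh3bgrl3 (0.831), out of 12368. Cd74, the invariant chain, and H2-Ab1, H2-Eb1 and H2-Aa belong to MHC class II presentation. Cd74 remained first without the arrays that stood apart (r = 0.884) and was second within ages (0.886). These points share arrays, their spread and the step between 4 and 8 weeks. Among the members themselves, r with the mean of the others ran from 0.541 for Psmb10 to 0.765 for H2-K1, and was -0.45 for Tap1.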

How the data were processed

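RNA of whole lacrimal glands was labelled as biotinylated cRNA and hybridised to 26 Affymetrix arrays. The authors deposited 1 table of log2 values per probe set and array. Per the submitters' processing notes, RMA and GCRMA were used, with no version stated, and it is not stated which of them gave the table's values.

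A gene stood as its probe set with the highest mean among those with 1 symbol, and was kept if above the array median on at least 4 arrays (12377 genes, 20110 probe sets). Of all probe sets, 34958 had 1 symbol, 932 several and 9211 were not listed. A mean per age was fitted with limma 3.58.1 (lmFit, eBayes) in R 4.3.3, with an F test and 6 contrasts, all two-sided. Benjamini-Hochberg adjustment ran over all features kept, and called means an adjusted p under 0.05. The fit was tested on simulated data with independent normal noise for each gene and the same spread on every array. There, at 8 against 4 weeks, 48% of 2-fold and 81% of 4-fold changes were found, with 5 false calls among 12377 genes. Arrays that stand apart and genes that move together were not simulated, so these figures need not hold for the real arrays. The number of arrays limits the precision.

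Genes, lists and alternatives were chosen with earlier results of these data known. Named are all 10 class I genes, at most 4 called genes of each other list, and the 10 genes most like the class I mean; further names (Nlrc5, Ifng and markers near background) were added after their values were seen. Promoters are RefSeq's on GRCm38.p6, with an entry for 9 of the 10 genes. Same-numbered arrays did not deviate together, so the numbers were not used as a block.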

Additional observations from a re-analysis of the deposited data

Results flagged for a closer look

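Among 45 groups of 4 to 6 arrays, 12 held an array far from the others of its age by Dixon's test. Chance alone gives about 1 in 20 groups where values are normally spread. The groups are 9 genes on the same 26 arrays, so the flags are not independent and their number is a description only. On 16 weeks replicate 4, B2m read 6.18 with the nearest array at 11.53, and Tapbp read 3.24 with the nearest at 7.79. On 20 weeks replicate 1, B2m read 9.43 (nearest 12.17) and Tap1 read 7.40 (nearest 5.29). Both are the arrays that stood apart.

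The other arrays were high. On 16 weeks replicate 2, Psmb8 read 6.58 (nearest 4.59), Psmb9 4.96 (nearest 3.33), Psmb10 4.80 (nearest 3.50) and Psme1 8.43 (nearest 7.40). On 20 weeks replicate 5, Psmb8 read 5.29 (nearest 4.38) and Psmb9 3.89 (nearest 3.44). Tap1 read 5.16 on 8 weeks replicate 6 (nearest 4.58) and 5.32 on 12 weeks replicate 1 (nearest 4.60).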

How the results depend on the processing

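Over 36 gene and comparison pairs, 14 alternatives and leaving out each of 26 arrays gave 1423 values, of which 1339 kept direction and call, 61 gained and 4 lost a call and 19 turned direction. The cause of these changes was not tested. Of the 9 genes, those called over the 5 ages numbered 3 with probe sets averaged per gene (17.1% of all genes), 8 with array weights (65.9%), 5 without both arrays that stood apart (20.8%) and 2 with the actin difference as covariate (8.89%). At 8 against 4 weeks they numbered 1 with quantile normalization (1.42%), the filter at the 75th percentile (2.48%) or only the ages compared (1.57%), 8 with array weights (36.8%) and 5 without both arrays (4.88%). At 20 against 4 weeks they numbered 1 with quantile normalization (6.88%) or array spread as covariate (8.81%), 4 with array weights (28.1%) and 3 without both arrays (8.25%). At 20 against 8 weeks they numbered 2 with the mean of probe sets (28.9%), 1 without _x_at and _s_at probe sets (28.3%) and 4 with array weights (40.3%). Leaving out 1 array gave 0 to 3, 0 to 3, 0 to 1 and 0 to 3 in these comparisons. At 20 against 4 weeks Psme1 was called without 4 weeks replicate 1 or 20 weeks replicate 1.

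Of the 22 probe sets, 19 were called over the 5 ages with array weights (63.0% of all probe sets), 10 without both arrays (18.7%) and 2 with array spread (13.9%). At 8 against 4 weeks the count was 2 with quantile normalization (0.995%) and 3 with the 75th percentile (1.99%). It was 1 with trend and robust eBayes (1.08%), only the ages compared (1.04%) or the actin difference (0.92%). With array weights it was 17 (34.2%) and without both arrays 10 (3.63%). At 20 against 4 weeks it was 1 with quantile normalization (7.45%) or array spread (8.99%), 7 with array weights (27.3%) and 4 without both arrays (7.85%). At 20 against 8 weeks it was 3 with quantile normalization (22.2%) or a 2-fold minimum (share over all not counted) and 13 with array weights (41.4%). It was 1 with only the ages compared (10.1%) or array spread (9.01%), 2 without both arrays (15.3%) and 0 with the actin difference (6.03%). Leaving out 1 array gave 3 to 11, 0 to 8, 0 to 1 and 2 to 11. The shares of all probe sets then ran from 11.2% to 24.1%, 0.398% to 2.74%, 0.82% to 5.9% and 11.9% to 36.3%.

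With the replicate number as a block, 0 of the 9 genes (10.6% of all genes) and 3 of the 22 probe sets (10.8% of all probe sets) were called over the 5 ages. No contrast called any of the 9 genes in that fit. Same-numbered arrays had a mean residual correlation of -0.024 over 47 pairs, so the numbers do not pair the arrays.

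Tap1 at 8 against 4 weeks turned to -0.13 with quantile normalization, -0.036 with the mean of probe sets, -0.19 without _x_at and _s_at and -0.012 with array weights. At 20 against 8 weeks B2m turned to 0.61 with quantile normalization, 0.34 with array weights, 0.52 without both arrays, 1.12 with array spread and 0.97 with the actin difference. Tapbp turned to 0.072, 0.57 and 0.20 with quantile normalization, array spread and the actin difference. Psme1 turned to 0.31, 0.080 and 0.44 with quantile normalization, without both arrays and with array spread. Leaving out 1 array gave -0.093 to 0.067 for Tap1, -0.23 to 0.52 for B2m and -0.63 to 0.080 for Psme1 in these comparisons. With quantile normalization the subunit differences at 8 against 4 weeks turned to 0.089 (Psmb8), 0.36 (Psmb9) and 0.27 (Psmb10), and Psmb8 minus Psmb5 passed at 20 against 4 weeks (1.11). Psmb10 minus Psmb7 was 1.30 without both arrays, an alternative chosen after seeing the data, at sizes (4 against 4) too small for it to pass alone. Leaving out 1 array gave -0.49 to 0.14, -0.35 to 0.065 and -0.52 to 0.030 at 8 against 4 weeks, and 0.96 to 1.76, 0.19 to 1.03 and 1.30 to 2.20 at 20 against 4 weeks. Genes near background (Tap2, Psmb9, Psmb10) limit what signal can show.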
